A study of Mus musculus with 2 samples.

Results

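Genes of protein folding were examined in effector CD8+ T cells of the mouse after 2 rounds of stimulation in culture and after 1 round. The 44 genes encode the main cytosolic and mitochondrial chaperones, the chaperonin ring, and the chaperones, disulfide isomerases and stress regulators of the endoplasmic reticulum (ER). They were listed by name, but with earlier results of these data known, so their counts beside all genes are descriptions only. Of the 44, 39 had a probe with exactly 1 gene symbol and a value on both arrays, among 14150 such genes in all. By compartment these were 8 of 12 cytosolic genes, 5 of 5 mitochondrial genes, 8 of 8 genes of the chaperonin ring and 18 of 19 ER genes. Hspa1b, Hsp90aa1, Hsp90ab1, Hsf1 and Atf6 had no such probe, so no ratio is given for them, and the cytosolic HSP90 chaperones and the heat shock transcription factor are not represented.

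In the pmel transgenic mouse, the source of these cells, the transgenic T cell receptor recognises a melanocyte peptide; what drives the transgene is not given. Total RNA of cells after 2 stimulations (channel 2) and of cells after 1 stimulation (channel 1) was hybridised together on a 2-colour microarray. There were 2 such arrays, array 1 and its repeat, array 2. Both groups carry the same transgene. The labels give no age, sex, dose or day, and no unstimulated cells were analysed here. Whether new cultures stood behind the repeat is not labelled, so errors and p-values reflect the spread of 2 arrays only, and it may be technical.

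The deposited values are log ratios between the channels, to 2 decimals, and were taken as log2 although their base is not stated. Its direction is not stated either. Titles and channel numbers begin with stimulation 1; from that order alone, stimulation 1 is likely the numerator. On that reading, negative values mean more RNA in the cells stimulated 2 times. With the opposite order the sides swap, so results are given as the negative and the positive side. Both arrays carried the stages in the same channels, so a dye bias of a probe and a difference in RNA cannot be told apart. The 2 arrays correlated across the 14150 genes, which are not independent replicates, at a Pearson's r of 0.519 and a Spearman's rho of 0.444. Their medians over all genes were -0.02 and -0.01.

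Chaperones bind unfolded proteins and keep them from aggregating, many of them through cycles of ATP hydrolysis. HSP70 proteins work with J-domain partners that deliver clients and stimulate hydrolysis, and the chaperonin ring, also called TRiC or CCT, encloses proteins such as actin and tubulin. In the ER, folding is tied to disulfide bonds and glycosylation, and an excess of unfolded protein there starts the unfolded protein response, in which the transcription factors ATF6, XBP1 and ATF4 raise chaperone genes. Activated T cells grow, divide and secrete cytokines and granule proteins, which loads both the cytosolic and the ER folding systems.

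Most folding genes lay on the negative side of the ratio. Of the 39, 29 were negative on both arrays, against a background of 33.6% of all genes, and 1, Pdia3, was positive on both, against 29.6% of all genes. The median log2 ratio of the 39 was -0.49, with -0.24 on array 1 and -0.76 on array 2, beside -0.02 over all 14150 genes. Array 1 alone was negative for 30 members (51.6% of all genes) and positive for 8 (47.1%), and array 2 alone was negative for 37 (51.0%) and positive for 2 (47.5%). The mean of 35 of the 39 lay below the median of all genes. At least 1.5-fold from a ratio of 1 on both arrays were 7 genes, all on the negative side, where 3.0% of all genes reached that size, and none on the positive side, where 1.24% did. These were Sdf2l1, Pdia6, Creld2, Xbp1, Hsp90b1 and Hspa5 of the ER and Hspd1 of mitochondria. On array 1 alone 9 members reached that size, all on the negative side, against 6.14% of all genes. On array 2 alone 21 did, also all negative, against 9.48% of all genes. Sdf2l1 and Pdia6 also reached 2-fold on each array, on the negative side, as did 0.721% of all genes; 0 members did so on the positive side, against 0.233%. At 2-fold and on the negative side, array 1 alone had 2 members, against 1.56% of all genes, and array 2 alone had 14, against 3.09%.

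In limma's moderated test no folding gene passed an adjusted p of 0.05, and 0% of all 14150 genes did. The adjusted p of the 39 genes lay between 0.122 and 0.988. At an unadjusted p of 0.05, 16 of the 39 passed on the negative side, against 10.3% of all genes, and 0 on the positive side, against 5.86%. With both arrays brought to the same median absolute value, a rescaling from 0.21 and 0.20, limma called 0.728% of all genes, and Sdf2l1 (adjusted p = 0.0363) and Pdia6 (adjusted p = 0.0434) were among them, both on the negative side. The text below gives the values of single genes without calls.

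**Figure D1:**
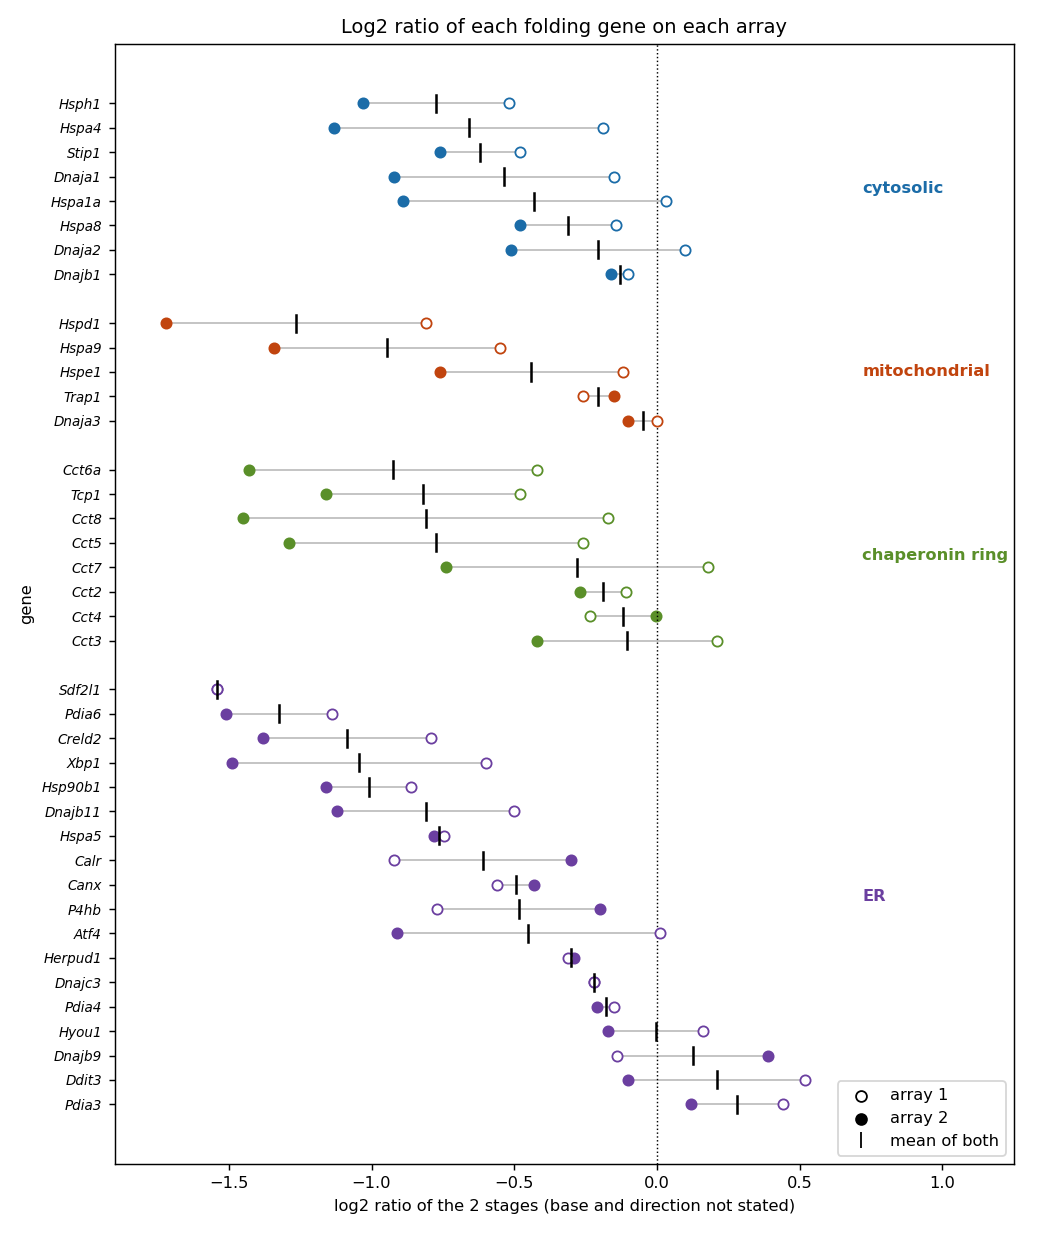
Log2 ratio (horizontal axis) of each of the 39 measured folding genes (vertical axis), sorted by mean within the 4 groups; open circles are array 1, filled circles array 2 and black ticks the mean of both. Most genes lie left of 0, Sdf2l1 has -1.54 on both arrays, and Pdia3 is the gene right of 0 on both.

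Of the 6 folding genes with a mean below -1, 5 belonged to the ER. Sdf2l1 encodes an ER protein that works together with the J-domain protein encoded by Dnajb11, and it read -1.54 on both arrays, a 2.91-fold difference. It was number 39 of 14150 genes counted from the lowest mean. Dnajb11 read -0.50 on array 1 and -1.12 on array 2. Creld2, an ER protein induced by ER stress, read -0.79 and -1.38, with a mean of -1.09 ± 0.42 (SD, n = 2). Both values of each of these 3 genes lay below 0. Hsp90b1, which encodes the ER member of the HSP90 family (GRP94), read -0.86 and -1.16, with a mean of -1.01 ± 0.21 (SD, n = 2), a 2.01-fold difference.

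Hspa5 encodes BiP, the HSP70 protein of the ER that also holds the stress sensors inactive. It read -0.75 on array 1 and -0.78 on array 2 as the mean of its 2 probes. The probes differed in size, with means of -1.08 and -0.45, and both were negative on both arrays. Other ER cofactors lay closer to 0. Herpud1, a component of ER-associated degradation, read -0.31 and -0.29, and Dnajc3, a J-domain cochaperone of BiP, read -0.22 on both arrays. Hyou1, the large HSP70 relative that exchanges nucleotide on BiP, read 0.16 and -0.17. Dnajb9, another J-domain protein of the ER, read -0.14 and 0.39, so Hyou1 and Dnajb9 had opposite signs on the 2 arrays.

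The lectin chaperones bind newly made glycoproteins through their sugar. Calr, for calreticulin, read -0.92 on array 1 and -0.30 on array 2. Canx, for calnexin, read -0.56 and -0.43, so both were negative on both arrays. The disulfide isomerases form and rearrange disulfide bonds, and both arrays were negative for 3 of the 4 measured and positive for 1. Pdia6 read -1.14 and -1.51, with a mean of -1.33 ± 0.26 (SD, n = 2), a 2.51-fold difference. P4hb, the archetypal isomerase PDI, read -0.77 and -0.20, and Pdia4 read -0.15 and -0.21. Pdia3 encodes ERp57, the partner of calreticulin and calnexin, and read 0.44 and 0.12. The partners of the glycoprotein cycle thus lay on opposite sides of the ratio, Calr and Canx negative and Pdia3 positive on both arrays.

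Of the 3 measured transcription factors of the unfolded protein response, 1 was negative on both arrays, a share near the 33.6% of all genes. On both arrays 0 were positive, against 29.6% of all genes. Xbp1, whose RNA is spliced by the stress sensor IRE1 into the active form, read -0.60 and -1.49, with a mean of -1.05 ± 0.63 (SD, n = 2). Which splice form its probe sees was not tested. Atf4, the factor translated when eIF2 alpha is phosphorylated, read 0.01 and -0.91. Ddit3, which encodes the death-promoting target CHOP, read 0.52 and -0.10. Xbp1 was the factor below 0 on both, while Atf4 and Ddit3 had opposite signs on the 2 arrays.

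**Figure D2:**
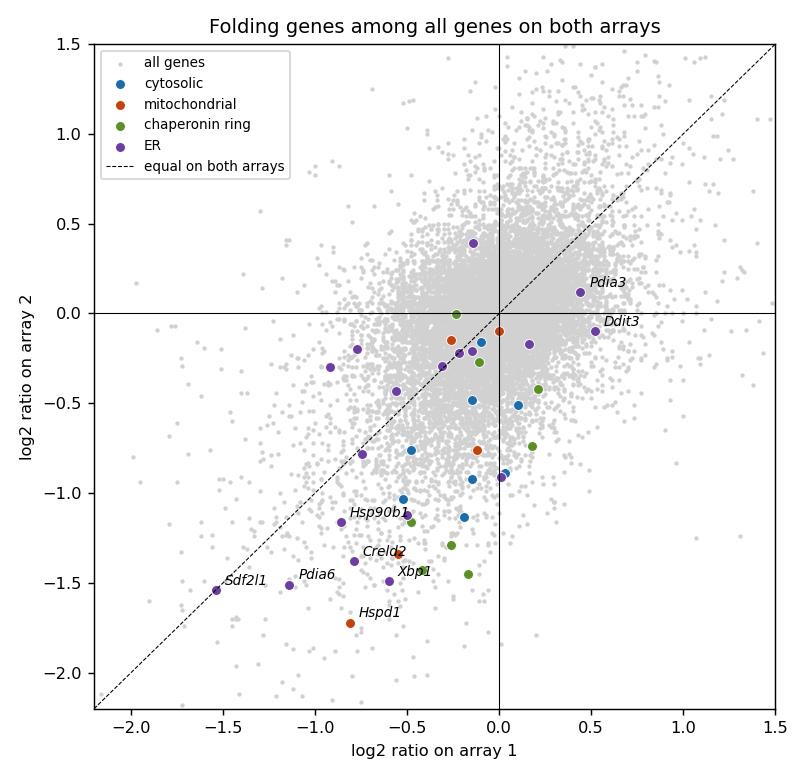
Log2 ratio on array 1 (horizontal axis) against array 2 (vertical axis) for all 14150 genes (grey) and the 39 folding genes (coloured by group), with names for means below -1 or above 0.2; both axes end at -2.2 and 1.5, so some grey points lie outside. Sdf2l1 lies on the dashed line of equal values, and most cytosolic, mitochondrial and ring genes lie below it.

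Promoters of the folding genes were read for known stress elements, since 2 separate programmes control them. The ER stress element binds NF-Y and ATF6, and the heat shock element binds HSF1. Windows from 250 bases before to 50 bases after the transcript start were taken from RefSeq (GRCm38.p6), and 36 of the 44 genes had 1 or more, 43 windows in all. Both strands were searched. The ER stress element, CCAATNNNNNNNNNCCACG, was in the windows of 7 of 17 ER genes (Calr, Canx, Creld2, Dnajc3, Hsp90b1, Hspa5 and Pdia6) and in 0 windows of the other groups, against 0.119% of all 32851 windows. Its short form II, ATTGGNCCACG, was in those of Dnajb11 and Herpud1, against 0.0365% of all windows. The matches overlapped no other motif searched.

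The stretches that hold the element are shown to let its fixed ends and variable middle be compared, each turned to read along the element, which is in capitals, with 20 bases on either side (GRCm38.p6, strand of the printed bases). Hsp90b1 held 2 copies.
Pdia6, chr12:17266471-17266529, plus strand: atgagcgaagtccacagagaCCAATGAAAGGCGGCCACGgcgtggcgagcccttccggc
Creld2, chr15:88819500-88819558, minus strand: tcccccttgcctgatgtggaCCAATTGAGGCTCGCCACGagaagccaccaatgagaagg
Hsp90b1, chr10:86705513-86705571, plus strand: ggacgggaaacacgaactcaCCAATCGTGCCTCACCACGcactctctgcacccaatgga
Hsp90b1, chr10:86705618-86705676, minus strand: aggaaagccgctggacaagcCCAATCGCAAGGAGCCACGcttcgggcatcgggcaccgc
Hspa5, chr2:34772005-34772063, plus strand: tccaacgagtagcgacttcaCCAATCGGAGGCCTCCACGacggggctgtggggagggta
Calr, chr8:84847055-84847113, plus strand: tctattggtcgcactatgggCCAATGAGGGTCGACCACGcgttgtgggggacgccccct
Canx, chr11:50325780-50325838, minus strand: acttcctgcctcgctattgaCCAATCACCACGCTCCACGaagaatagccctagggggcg
Dnajc3, chr14:118937807-118937865, plus strand: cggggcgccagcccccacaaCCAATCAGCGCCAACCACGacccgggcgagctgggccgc

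The 9 ER genes with either form were negative on both arrays, 9 of 9. Of the 11127 measured genes with a window, 3814 were negative and 3248 positive on both arrays. The 9 had a median log2 ratio of -0.76 (-0.75 on array 1 and -0.78 on array 2) and a range from -1.33 to -0.22. Of the 8 ER genes whose windows held neither form, both arrays were negative for 4 and positive for 1, and the median was -0.32 (-0.15 on array 1 and -0.21 on array 2). This is a description of few genes. Sdf2l1, the ER gene farthest from 0, and Xbp1 (mean -1.05) were among the 8, so the exact letters did not mark every far gene. The measured transcription factors Xbp1, Atf4 and Ddit3 were all among the 8, so the 8 and the 9 also differ in kind of gene. Over 21 measured genes outside the 44 that held either form, both arrays were negative for 7 and positive for 7, and the median was -0.02, against -0.03 over the 11127 measured genes with a window. A match is not shown to be a site in use.

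The 250 bases before the start of Hspa5, the best known target of this response, are given whole, with its ER stress element and the unfolded protein response element core (TGACGTG, in 2.01% of all windows) in capitals (chr2:34771840-34772089, plus strand, GRCm38.p6).
Hspa5: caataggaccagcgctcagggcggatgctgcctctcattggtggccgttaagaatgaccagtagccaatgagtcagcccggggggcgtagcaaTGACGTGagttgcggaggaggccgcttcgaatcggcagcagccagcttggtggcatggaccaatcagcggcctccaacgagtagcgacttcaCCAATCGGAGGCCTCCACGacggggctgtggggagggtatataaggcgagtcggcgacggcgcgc
The core was found in the window of no other member. The C/EBP-ATF response element, TGATGNAA, bound by ATF4, was in the window of Herpud1 alone among the members, and in 3.97% of all windows.

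**Figure D3:**
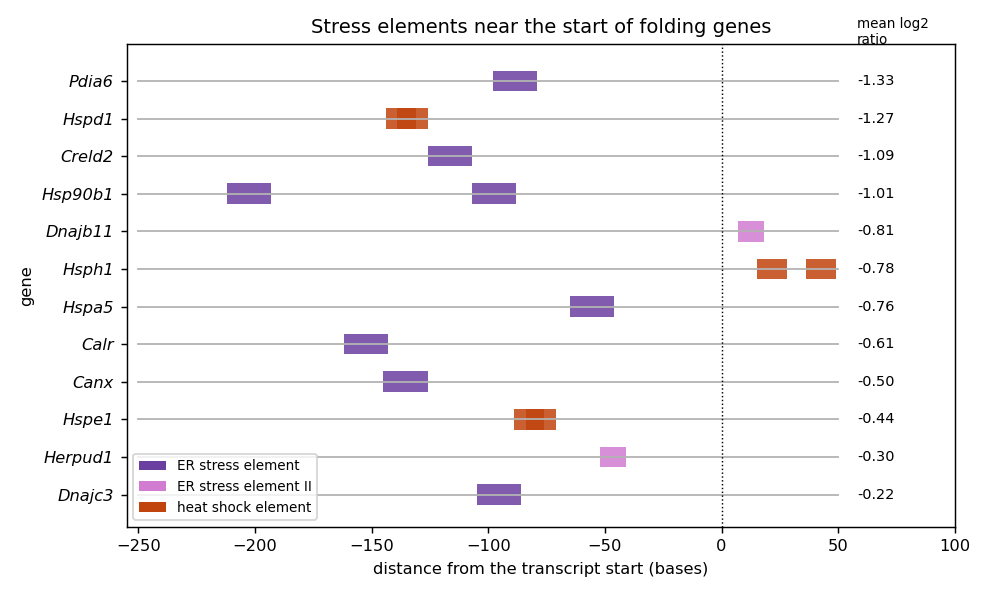
Position of ER stress elements of both forms and of heat shock elements (coloured boxes, to scale) from 250 bases before to 50 bases after the transcript start (horizontal axis, bases) of the 12 folding genes that held one (vertical axis), sorted by mean log2 ratio, printed at the right. Every mean is negative, from -1.33 for Pdia6 to -0.22 for Dnajc3; the 2 boxes of Hsph1 are 1 site seen from 2 transcript starts, and overlapping boxes of Hspd1 and Hspe1 are matches on opposite strands.

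Mitochondrial chaperones fold proteins after import into the matrix. Hspd1 encodes the matrix chaperonin HSP60, and read -0.81 on array 1 and -1.72 on array 2, with a mean of -1.27 ± 0.64 (SD, n = 2), a 2.40-fold difference. Its cochaperonin gene Hspe1, for HSP10, read -0.12 and -0.76. Hspa9, for the matrix HSP70 mortalin that also pulls proteins through the import channel, read -0.55 and -1.34. These 3 genes were negative on both arrays and farther from 0 on array 2. Trap1, the HSP90 relative of mitochondria, read -0.26 and -0.15, and Dnaja3, a J-domain partner of mortalin, 0.00 and -0.10.

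Hspd1 and Hspe1 are neighbours that point away from each other, so the same bases lie before both starts. Their shared stretch held the heat shock element, GAANNTTCNNGAA, which was in 0.603% of all windows and, among the members, in those of Hspd1, Hspe1 and Hsph1. Those exact letters were not in the windows of Hspa1a, Hspa1b or Dnajb1, and looser forms of the element were not searched. The shared stretch is shown to mark 2 overlapping matches on opposite strands, whose letters are in capitals. The printed bases are the 250 before the Hspe1 start (chr1:55087898-55088147, plus strand, GRCm38.p6).
Hspe1: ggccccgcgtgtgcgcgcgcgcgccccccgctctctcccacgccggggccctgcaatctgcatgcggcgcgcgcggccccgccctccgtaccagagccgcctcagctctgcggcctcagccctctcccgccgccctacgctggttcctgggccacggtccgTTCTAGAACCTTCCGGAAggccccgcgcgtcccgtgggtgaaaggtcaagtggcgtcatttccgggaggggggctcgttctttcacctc
Although they share these bases, Hspd1 had a mean of -1.27 and Hspe1 of -0.44, and each was nearer 0 on array 1. The 64 measured genes outside the 44 with a heat shock element had a median of -0.06. Of these 64, 30 were negative and 18 positive on both arrays, against 3814 and 3248 of the 11127 measured genes with a window.

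The chaperonin ring is built from 8 different subunits, and all 8 were measured. Cct6a read -0.42 on array 1 and -1.43 on array 2, with a mean of -0.93 ± 0.71 (SD, n = 2). Tcp1, the founding subunit, read -0.48 and -1.16, and Cct5 -0.26 and -1.29. Cct8 had the widest gap of the ring, with -0.17 and -1.45. These 4 subunits were negative on both arrays. Cct2 read -0.11 and -0.27, while Cct7 (0.18 and -0.74) and Cct3 (0.21 and -0.42) were positive on array 1 and negative on array 2. The 2 probes of Cct4 disagreed, with -0.41 and -0.69 for 1 and -0.06 and 0.68 for the other, and their mean was -0.12. Subunits of a ring that is assembled in equal parts thus had means from -0.93 to -0.11, a range narrower than the gap between the arrays for Cct8.

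All 8 cytosolic genes were negative on array 2, and 6 of the 8 on array 1, beside the shares of all genes given above. Hsph1, an HSP110 protein that exchanges nucleotide on HSP70, read -0.52 on array 1 and -1.03 on array 2, with a mean of -0.78 ± 0.36 (SD, n = 2). Hspa4, its close relative, read -0.19 and -1.13. Stip1, the adaptor known as HOP that hands clients from HSP70 to HSP90, read -0.48 and -0.76. These 3 genes were the farthest from 0 of the group. Dnaja1, a J-domain partner of HSP70, read -0.15 and -0.92, and its relative Dnaja2 0.10 and -0.51. Dnajb1, the heat-inducible J-domain protein HSP40, read -0.10 and -0.16.

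The HSP70 proteins proper had means between those of Dnaja1 and Dnaja2. Hspa8, the constitutive HSC70, read -0.15 and -0.48 as the mean of 2 probes that gave means of -0.41 and -0.22. Hspa1a, the heat-inducible HSP70, read 0.03 and -0.89. Hspa1a and Hspa1b are nearly identical neighbours, so the probe annotated to Hspa1a may detect both. Hspa1a and Dnajb1 thus gave means of -0.43 and -0.13, nearer 0 than Hsph1.

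The 4 groups had nearly equal medians when the arrays were averaged, and differed in how the arrays compared. The median log2 ratio was -0.48 for the cytosolic, -0.44 for the mitochondrial, -0.53 for the ring and -0.49 for the ER group. On array 1 the medians were -0.15 (cytosolic), -0.26 (mitochondrial), -0.20 (ring) and -0.53 (ER), so the ER group was farthest from 0. On array 2 they were -0.83, -0.76, -0.95 and -0.37 in the same order, so the ER group was nearest to 0. The cytosolic minus ER difference was 0.38 on array 1 and -0.46 on array 2. For the ring minus ER it was 0.33 and -0.59, and for mitochondrial minus ER 0.27 and -0.40. The groups other than ER lay close to each other, and their 3 differences ranged from -0.065 to 0.19 on single arrays. With 2 arrays an exact sign-flip test cannot give a two-sided p below 0.5, so none of the 6 differences is tested, and none involving the ER group kept its sign. On array 1, at least 1.5-fold on the negative side were 8 of 18 ER genes, against 6.14% of all genes. The ring and cytosolic groups each had 0 of 8 there, and the mitochondrial group 1 of 5. On array 2 it was again 8 of 18 ER genes, against 9.48% of all genes. The ring and cytosolic groups each had 5 of 8 on array 2, and the mitochondrial group 3 of 5. The ER share was thus the highest on array 1 and the lowest on array 2.

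The gap between arrays was wide and mostly in 1 direction outside the ER. All 8 cytosolic genes, 7 of 8 ring genes and 4 of 5 mitochondrial genes were lower on array 2 than on array 1, against 51.1% of all genes. In the ER group 11 of 18 were, while Calr, Canx, P4hb, Dnajb9 and Herpud1 were higher on array 2. The median gap without regard to sign was 0.56 for cytosolic, 0.64 for mitochondrial, 0.80 for ring and 0.35 for ER genes, beside 0.24 for all genes. Whether the ER gap differs from the others was not tested. Many HSP and ring probes carry neighbouring numbers. Around each of the 42 probes of all members, the 50 nearest probes of no member were taken in number order. The medians of these neighbours lay between -0.19 and 0.15 on array 1 and between -0.34 and 0.14 on array 2. After subtraction of these neighbours' medians, the group medians were -0.41 (cytosolic), -0.30 (mitochondrial), -0.37 (ring) and -0.42 (ER). This step was chosen after the data were seen. These group medians are of means over both arrays, so they do not show whether the gap between arrays remained.

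**Figure D4:**
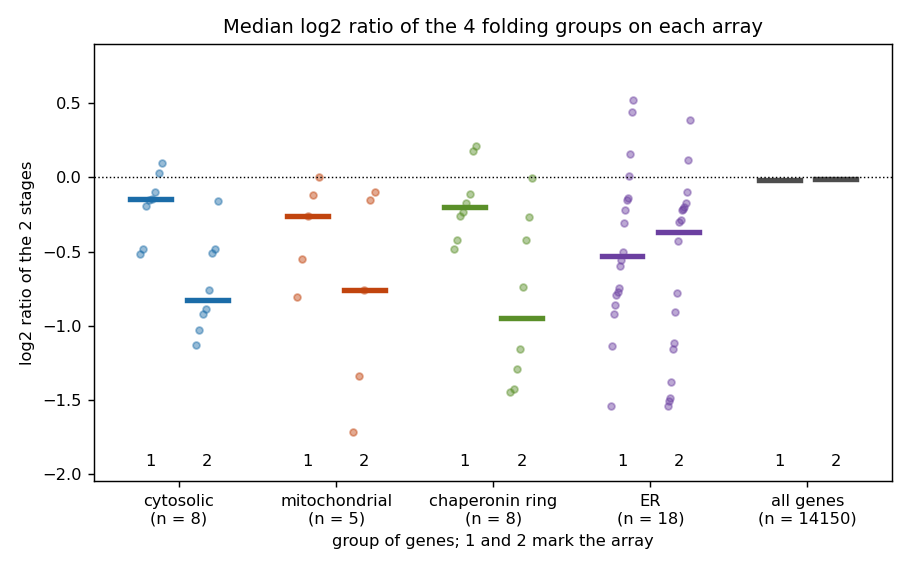
Log2 ratio (vertical axis) of the folding genes on array 1 and array 2 in each group (horizontal axis); points are genes and bars medians, with the medians of all 14150 genes at the right. The ring median is -0.20 on array 1 and -0.95 on array 2, while the ER median is -0.53 and -0.37.

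Further genes of the folding pathways were counted in the same way, 95 measured of 111 listed. Both arrays were negative for 53 of them, against 33.6% of all genes, and positive for 14, against 29.6%. Their median was -0.28 (-0.13 on array 1 and -0.27 on array 2). At least 2-fold on both were 0, against 0.721% of all genes on the negative side and 0.233% on the positive side. In limma's test 0 passed an adjusted p of 0.05, and 0% of all genes did. By compartment, 15 of 28 cytosolic, 7 of 15 mitochondrial, 6 of 9 prefoldin and chaperonin-helper and 25 of 43 ER genes were negative on both arrays. The lowest means were those of Atf3, a stress-induced factor (-0.06 and -1.77), Ssr1, a subunit of the translocon-associated complex (-1.06 and -0.76), and Fkbp2, a prolyl isomerase of the ER (-0.83 and -0.89). The highest were those of Creb3l2, a membrane-bound stress factor (0.52 and 0.75), and of the J-domain genes Dnajc7 (0.23 and 0.70) and Dnajb2 (0.27 and 0.53). Atf3 rests on array 2 alone, whereas Ssr1 and Fkbp2 lay near the main ER chaperones on both arrays.

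Markers of other cells a culture could hold were read beside these results, as ratios only, since no intensities were used here. The counts below stand beside 33.6% of all genes negative and 29.6% positive on both arrays. Among 11 B and plasma cell markers, both arrays were negative for 0 and positive for 8. Their median was 0.17 (0.18 on array 1 and 0.32 on array 2). Of its plasma cell genes, Jchain read 0.46 and 0.83, Tnfrsf17 0.18 and 0.01, and Sdc1 0.14 and -0.29. Among 8 CD8 T cell markers, both arrays were positive for 6 and negative for 1, with a median of 0.37. Cd8a read 0.37 and 0.90, Cd3e -0.09 and 0.45. Among 4 helper T cell markers, both arrays were negative for 0 and positive for 2, with a median of 0.12. Cd4 of that list read -0.11 and 0.02. Of 7 myeloid markers 3 were negative and 1 positive on both arrays (median -0.13). Of 5 natural killer markers 2 were negative and 1 positive (median 0.24), and of 4 erythroid and platelet markers 2 were negative and 0 positive (median -0.16). The lowest marker of each of the last 2 lists, Klrb1c (-0.77 and -1.88) and Pf4 (-0.75 and -2.16), lay on the side of the folding genes and, like most of them, lower on array 2. The highest of these lists were Klra8 (0.86 and 0.06) and Alas2 (-0.14 and 0.19), and the natural killer markers Klra4 and Klra3 also had positive means. Far on the positive side lay Cd79b of the B cell list (0.67 and 1.62) and Cd5 of the CD8 list (0.64 and 1.68). Klrb1c, Klra8, Klra4, Klra3, Pf4, Alas2, Cd79b, Cd5 and the plasma cell genes were chosen for mention after their values were seen. The part of all these markers in the folding genes' values was not tested. In bulk RNA of a culture, fewer cells of a type and less RNA per cell cannot be told apart.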

How the data were processed

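The deposited table held 21919 probes with 1 log2 ratio per array, and 21427 had both values. The authors' scanner, normalization and filters are not given in the sources used here. Log2 base and direction of the ratio are assumptions. Array medians over all probes were 0.01 and 0.02. No intensities were used, so signal strength is unknown; the number of arrays limits the precision.

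Probes were named from the platform annotation, in which 15998 had 1 symbol, 288 several and 5633 none, and 15799 singly named probes had an Entrez ID in RefSeq. Probes of a gene were averaged on each array. An intercept was fitted with limma 3.58.1 (R 4.3.3) over all 14150 genes and tested against 0, two-sided, with Benjamini-Hochberg adjustment. Each gene had 1 residual and 3.55 prior degrees of freedom, and 95% confidence intervals had a median half-width of 0.389. The steps were tested on simulated data. No low-value filter or pseudocount applied. Groups were summarised by counts and medians, with no set test.

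All 44 members are named. Other pathway genes are named if at least 2-fold on both arrays or among the 3 farthest on each side. The rule for markers was at least 2-fold on both arrays or one of Cd8a, Cd3e and Cd4. Jchain, Tnfrsf17, Sdc1, Klrb1c, Klra8, Klra4, Klra3, Pf4, Alas2, Cd79b and Cd5 were named outside this rule, after their values were seen. The members, groups, lists and tests were chosen with earlier results of these data known. Promoter sequences are RefSeq's (GRCm38.p6), and no genome was used. Alternatives were centring, scaling, quantile normalization, probe handling, the spread model, group definitions, the log base, leaving out each array and, added after the data were seen, subtraction of neighbouring probes. The planned scaling to equal median absolute deviation was run as scaling to equal median absolute values, the form limma uses for log ratios.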

Additional observations from a re-analysis of the deposited data

How the results depend on the processing

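With both arrays used, 97 values stayed on the same side and within 1 SD between arrays (or within 1.5 times, for counts), 5 moved and 11 turned sign. That SD comes from 2 arrays and is wide. Leaving out 1 array shifts a mean by less than this SD by construction, but this does not hold for a median over genes. With 1 array left out, 17 values stayed by the same rule, 6 moved and 5 turned sign. Without array 1 the ER median went from -0.49 to -0.365, past its SD of 0.117. On single arrays the median was -0.825 to -0.1475 for cytosolic and -0.76 to -0.26 for mitochondrial genes. It was -0.95 to -0.2025 for ring and -0.53 to -0.365 for ER genes. The count of genes negative on both arrays stayed between 25 and 30 wherever both arrays were used, and the 4 group medians were negative in every repeat. limma called 2 folding genes and 103 genes in all with equal median absolute values, against 0 as reported; that rescaling left 14 genes with equal values on both arrays in place of 153, and the prior degrees of freedom were 5.04 in place of 3.55. Without moderation 2 folding genes (Sdf2l1 and Dnajc3, equal on both arrays to 2 decimals) and 146 genes in all were called. On single arrays, 2 to 8 folding genes were positive, 9 to 21 at least 1.5-fold and 2 to 14 at least 2-fold; read as natural logs, 14 and 6 on both arrays.

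The differences between group medians mostly changed sign between arrays, all except cytosolic minus ring. On single arrays they ranged from -0.065 to 0.1125 (cytosolic minus mitochondrial), 0.055 to 0.125 (cytosolic minus ring), -0.46 to 0.3825 (cytosolic minus ER), -0.0575 to 0.19 (mitochondrial minus ring), -0.395 to 0.27 (mitochondrial minus ER) and -0.585 to 0.3275 (ring minus ER). With each probe by itself, cytosolic minus mitochondrial was 0.01 and cytosolic minus ring 0.12. With means over genes, cytosolic minus mitochondrial was 0.123, mitochondrial minus ring -0.0779, mitochondrial minus ER -0.0417 and ring minus ER 0.0362. Without Hspa1a, cytosolic minus ring was -0.0075 and cytosolic minus ER -0.045. Cytosolic minus ER was -0.00708 with equal median absolute values, and ring minus ER 0.0475 with quantile normalization. With neighbouring probes subtracted, cytosolic minus ring was -0.0319 and ring minus ER 0.0463. The causes were not tested. Each ratio already pairs the stages within 1 array, so no further pairing was fitted.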
